A study of Caenorhabditis elegans with 4 samples.

Results

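The miR-51 family and miR-57 of *Caenorhabditis elegans* were examined in small RNA sequencing of wild-type N2 worms, the standard laboratory strain of this nematode. miRNAs are short RNAs cut from a hairpin precursor. They are loaded into Argonaute proteins and direct these to mRNAs, largely through the bases near the 5′ end known as the seed. A hairpin can yield a mature form from its 5p arm and another from its 3p arm, and as a rule one of them, the guide, accumulates while the other, the passenger, is mostly lost. The miR-51 family consists of miR-51, miR-52, miR-53, miR-54, miR-55 and miR-56, and is related to the ancient miR-100 group of animal miRNAs. Its members act redundantly in *C. elegans*, where loss of the whole family is lethal to embryos and the family is needed for attachment of the pharynx. miR-57 is related to miR-10, whose relatives in insects and vertebrates lie within Hox gene clusters, and it has been tied to posterior development in the worm through the Hox gene *nob-1*.

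Whole animals at the last larval stage (L4) were kept at 20°C (control, CTRL) or moved to 35°C (heat shock, HS), with 2 libraries in each group. The sample characteristics give 4 h of heat, while the treatment protocol and the authors' methods for small RNA give 6 h. Members were chosen by name alone, as every listed row of cel-miR-51, cel-miR-52, cel-miR-53, cel-miR-54, cel-miR-55, cel-miR-56 and cel-miR-57 with both arms where present (the prefix cel-, for the species, is left out below). This gave 13 of the 205 mature miRNAs in the table, from 7 of its 132 hairpins. The grouping into a family was taken from the names and was not checked against sequence here.

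A single value per mature miRNA could be used, the authors' mean normalized count over all 4 libraries. This is the read count of a mature miRNA after division by a size factor that evens out library depth, averaged by the authors over CTRL and HS together. It carries no spread between libraries and does not separate the temperatures, so the values below have no error, no level at 20°C or 35°C is given and no difference was tested. The depth of the libraries is unknown, and no counting interval or detection limit could be set. Each read stands for 1 small RNA, so levels were not divided by length. Differences in ligation and amplification between sequences remain in the values, and a ratio between 2 miRNAs is therefore a ratio of recovered reads.

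The 13 rows spanned almost the whole abundance range of the table. miR-57-5p was the highest of them at 665208 mean normalized counts and the fourth most abundant miRNA of all. The lowest, miR-53-3p, had 75.0, rank 198 of 205, where the lowest value in the table was 51.5. In all, 8 of the 13 were among the 68 rows with the highest levels, 1 in 3 of the table. These 8 were miR-57-5p, the higher arm of all 6 family hairpins and 1 passenger, miR-54-5p. Higher arms of other hairpins often stand this high too. miR-53-5p, the lowest of the 6 higher arms, was at rank 58 but only 44th among the 73 higher arms of the table. Such a place is therefore not particular to the family.

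**Figure D1:**
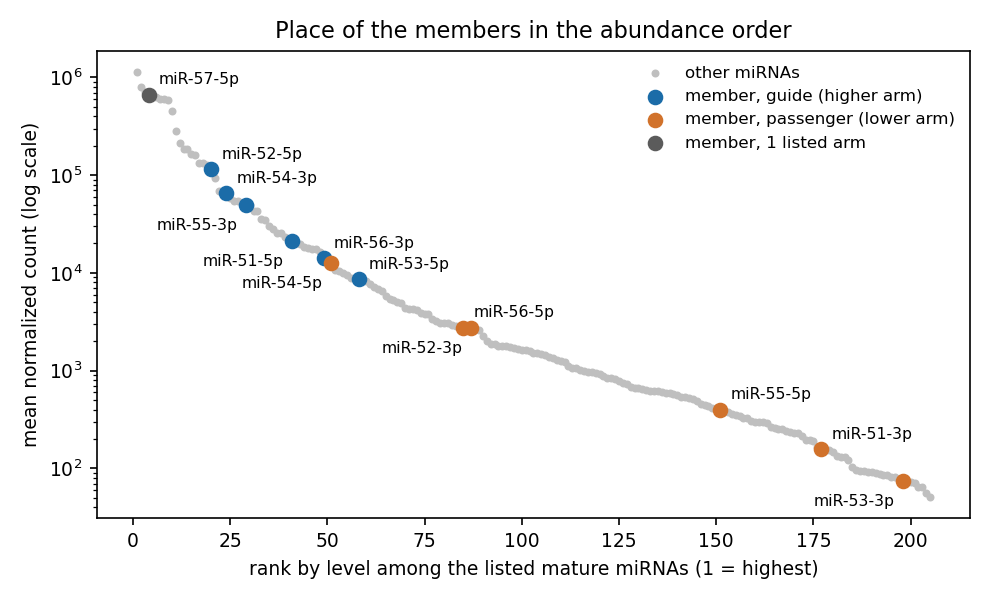
Mean normalized count (authors' mean over all 4 libraries, log scale) of each of the 205 mature miRNAs against its rank, with the 13 members coloured by role. miR-57-5p stands at rank 4, the 6 guide arms lie between ranks 20 and 58, and the passengers run from rank 51 to rank 198.

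miR-57-5p alone held 6.73% of the summed level of the table, and all 12 rows of the miR-51 family together held 2.96%. miR-57-5p was thus 2.43-fold above the 6 guide arms of the family added together. It sat within 1.06-fold of its neighbours in rank, miR-80-3p at 705995 and miR-58-3p at 644614, which cannot be ordered against it without a spread. Both neighbours belong to the miR-58 family, the worm relatives of the fly miRNA bantam. With miR-57 included the members held 9.69% of the table. Other seed families of several genes lay on both sides of the miR-51 family. miR-58, miR-80, miR-81 and miR-82 held 28.2% of the summed level, let-7, miR-48, miR-84 and miR-241 held 3.13%, and miR-35 to miR-42, a family of the germline and embryo, held 0.326%.

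Only the 5p arm of miR-57 had a row. The annotation also holds a 3p form of this hairpin, at positions 55 to 76 of its 99 nt, for which the table has no row and no ratio between arms could be formed. For the other 6 hairpins both arms were listed, and the arm with the higher level is termed the guide below.

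Among the guides of the miR-51 family, miR-52-5p was the highest at 114362 mean normalized counts. It accounted for 41.7% of the summed level of the 6 guides. miR-54-3p followed at 65563 and miR-55-3p at 50096. miR-51-5p stood at 21166, miR-56-3p at 14207 and miR-53-5p at 8575. The whole range over the 6 guides was thus 13.3-fold. Neighbours in this order were 1.31-fold to 2.37-fold apart, from miR-54-3p over miR-55-3p to miR-55-3p over miR-51-5p, and none of these steps could be set against replicate error. All 6 guides were above the median of the table, 1512, by 5.67-fold for miR-53-5p and up to 75.7-fold for miR-52-5p. The median over the 6 guides was 35631, beside 19814 over the guides of the 67 other hairpins with both arms. The latter value is also above the median of the table, which includes passengers, so a level above that median is not particular to the family.

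**Figure D2:**
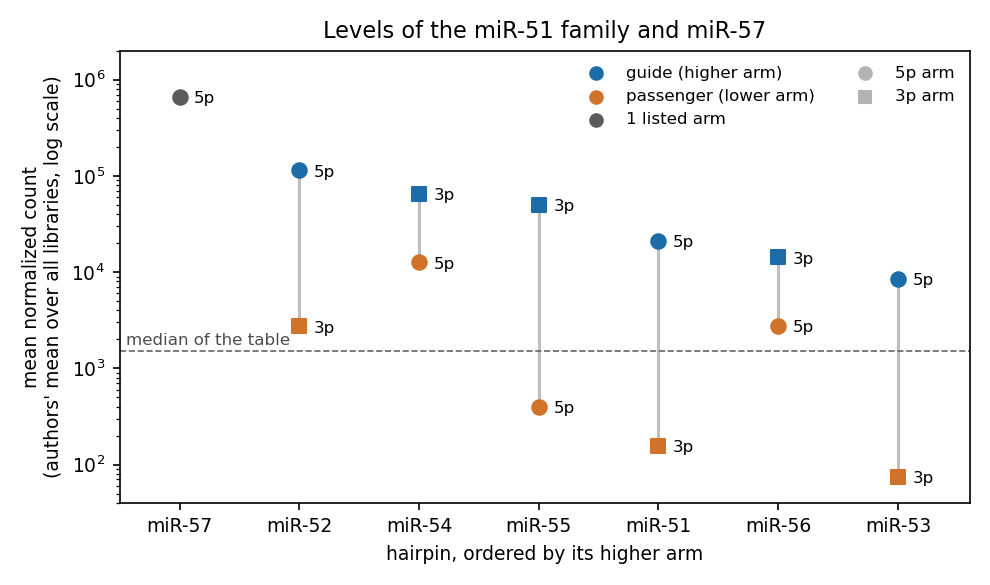
Mean normalized count (authors' mean over all 4 libraries, log scale) of every listed arm of the 7 hairpins, with circles for 5p and squares for 3p arms, blue for guides, orange for passengers and grey for miR-57, which has 1 listed arm. Grey lines join the arms of a hairpin, and the dashed line is the median of the table. The guides fall 13.3-fold from miR-52 to miR-53, while the passengers spread over 168-fold and do not follow the same order.

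The family divided by the arm that gave the guide. In miR-51, miR-52 and miR-53 the 5p arm was the more abundant, as in miR-57, where only this arm was listed. In miR-54, miR-55 and miR-56 it was the 3p arm. Of all 73 hairpins listed with both arms, 29 had a 5p guide and 44 a 3p guide. Summed over the guides, the 3p set of the family reached 0.901 of the 5p set, 129865 against 144102 mean normalized counts, a difference of 1.11-fold that has no error.

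The division followed the position of the genes. miR-54, miR-55 and miR-56 lie in a row on the minus strand of chromosome X (WBcel235), at 13144996 to 13145094, 13144827 to 13144924 and 13144691 to 13144787. Only 71 bp separate miR-54 from miR-55 and 39 bp separate miR-55 from miR-56. All 3 hairpins are within 1 intron of the protein-coding gene F09A5.3, which is on the opposite strand. That intron is 9158 bp long. miR-51 (11026013 to 11026112) and miR-53 (11027593 to 11027691) are on the minus strand of chromosome IV, 1480 bp apart. miR-52 is 3006316 bp away from miR-53 on the plus strand of the same chromosome (14034008 to 14034107). miR-57 is on the minus strand of chromosome II (7850499 to 7850597). The last 4 hairpins lie outside protein-coding genes. The nearest one is *alh-3* for miR-51 at 142 bp, *hrg-5* for miR-53 at 597 bp, *acr-7* for miR-57 at 701 bp and Y37A1B.7 for miR-52 at 8487 bp.

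Hairpins that lie side by side did not have the same level. Over both arms, the chromosome X hairpins ranged from 16970 mean normalized counts for miR-56 through 50496 for miR-55 to 78181 for miR-54, a 4.61-fold spread. In the direction of transcription miR-54 comes first and miR-56 last, so the level dropped along the row. For miR-51 and miR-53 the levels over both arms were 21323 and 8650, a 2.47-fold spread. When hairpins of the table on the same strand with gaps of up to 2000 bp were grouped, 14 such groups were found. The spread within a group had a median of 5.82-fold over these. It was the ninth largest in the miR-54 group and the 11th largest in the miR-51 group. With gaps of up to 10000 bp, a setting added after the table had been seen, there were 18 groups with a median spread of 9.90-fold, and neither member group gained a hairpin. Both groupings describe distance only, and whether the hairpins of a group are cut from a shared transcript was not tested.

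The 6 passengers were more unequal than the guides, with a 168-fold range. miR-54-5p was the highest at 12618 mean normalized counts. It was the fourth most abundant of the 73 passengers in the table and stood above 32 of the 73 guides. Within the family it exceeded the guide miR-53-5p by 1.47-fold. miR-56-5p at 2763 and miR-52-3p at 2730 were 1.01-fold apart, a difference that cannot be told from none without a spread. miR-55-5p had 400.1, miR-51-3p 157 and miR-53-3p 75.0, the last being rank 71 of 73 passengers. Over the 67 other hairpins the median passenger had 452.5, so that miR-54-5p, miR-56-5p and miR-52-3p were above it and the other three below. The 6, of 73 passengers in the table, together held 12.96% of the summed level of all passengers. Most of this came from 1 row, miR-54-5p, with 12618 of their 18743 mean normalized counts.

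The ratio between the arms differed among the hairpins of the family, without a spread to set the differences against. miR-51, miR-55 and miR-53 had guides 135-fold, 125-fold and 114-fold above their passengers, which is 7.07, 6.97 and 6.84 on the log2 scale. Among the 73 hairpins ordered by this ratio they took places 20, 21 and 22. miR-52 was at 41.9-fold, place 32. In miR-54 and miR-56 the guide was only 5.20-fold and 5.14-fold above the passenger, places 52 and 53. Put as a share of the hairpin, the passenger made up 16.1% of miR-54 and 16.3% of miR-56, but 2.33% of miR-52 and between 0.736% and 0.868% of miR-51, miR-55 and miR-53. Because the guide is by definition the higher arm, only the size of the ratio is a measurement. The 59 hairpins with 1 listed row, miR-57 among them, have no ratio, so places and medians cover only hairpins with both arms listed. No listed value was below 51.5, and whether weaker arms had been left out is not known. Hairpins with a very weak passenger could therefore be missing from the 73. A low guide also leaves little room for a large ratio when no listed value is below 51.5. The family guides had a median of 35631, beside 19814 over the guides of the other hairpins. Whether the ratios differ between hairpins with like guide levels was not tested. The median log2 ratio was 6.11 over the 6 family hairpins, beside 4.16 over the 67 others. It falls between miR-52 and miR-53, where no family hairpin lies. Above 10-fold were 4 of 6 family hairpins, beside 37 of 67 others (55.2%). Split by guide arm, the comparison of medians turned round. The 3 family hairpins with a 5p guide had a median of 114-fold, beside 7.33-fold over 26 others. For the 3 with a 3p guide it was 5.20-fold, beside 27.2-fold over 41 others, although miR-55 was at 125-fold. The means pool CTRL and HS, so these ratios and their places cannot be assigned to either temperature by itself. With hairpins limited to those with both arms at 100 or more, which leaves out miR-53, the median log2 ratio was 5.39 over 5 family hairpins and 3.77 over 55 others.

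**Figure D3:**
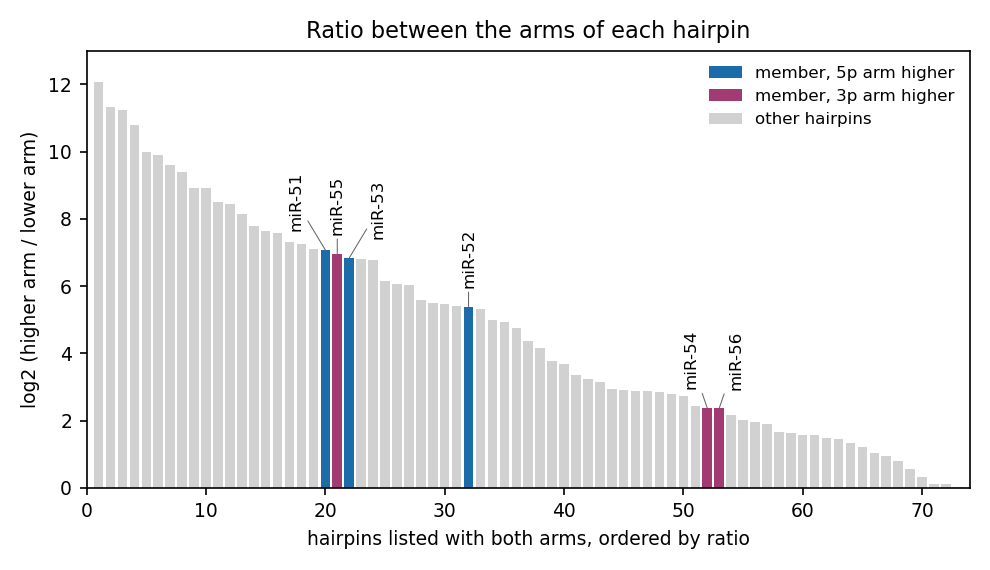
Log2 of the higher over the lower arm for each of the 73 hairpins listed with both arms, ordered by size, from the authors' means over all 4 libraries. Blue bars are family members with a 5p guide, purple bars those with a 3p guide and grey bars the other hairpins. miR-51, miR-55 and miR-53 stand side by side near a log2 ratio of 7, miR-52 is at 5.39, and miR-54 and miR-56 are both near 2.4.

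miR-55 differed from the hairpins on either side of it on chromosome X. Its guide was 1.31-fold below that of miR-54 and 3.53-fold above that of miR-56. Its passenger, however, was 31.5-fold below miR-54-5p and 6.90-fold below miR-56-5p. The gap between the arms of miR-55 was thus close to those of miR-51 and miR-53 on chromosome IV and not to those of the hairpins beside it. The order of the passengers in the family was miR-54, miR-56, miR-52, miR-55, miR-51 and miR-53, against miR-52, miR-54, miR-55, miR-51, miR-56 and miR-53 for the guides. Only miR-53 held the same place in both, the last.

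In the annotation, the 5p form begins later in the hairpins with a 3p guide, while the distances between the arms overlap. Annotated hairpins were 97 to 100 nt long. In miR-51, miR-52, miR-53 and miR-57 the 5p form begins at position 16 or 17 of the hairpin. In miR-54, miR-55 and miR-56 it begins at position 19, 23 and 18. The arms are 17 nt apart in each of miR-51, miR-52 and miR-53 and 15 nt apart in miR-57, while the distance is 20 nt in miR-54, 16 nt in miR-55 and 18 nt in miR-56. All 3 of these 3p guides begin at position 61. Guides were 22 to 24 nt long with a median of 23.5 nt, beside a median of 23 nt over 64 other guides. miR-56-5p, at 25 nt, was the longest of the 6 passengers, whose median of 22 nt was also that of 64 others. These are annotated ends, and the ends of the sequenced reads were not analysed here. Positions are counted from the end of the annotated hairpin, so they depend on where the annotation places that end.

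**Figure D4:**
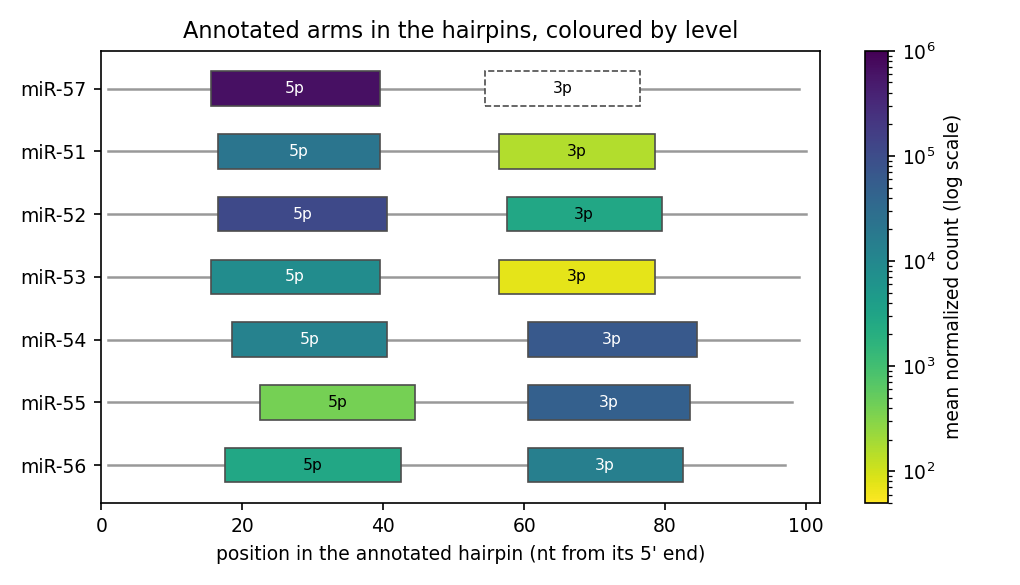
Annotated mature forms as boxes along each hairpin (x axis, nt from the 5′ end of the annotated hairpin), coloured by mean normalized count over all 4 libraries on a log scale. The dashed box is the annotated 3p form of miR-57, which has no row in the table. The darker box is the 5p arm in miR-51, miR-52 and miR-53 and the 3p arm in miR-54, miR-55 and miR-56, where every 3p form begins at position 61.

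miR-52-5p and miR-53-5p are known to be close in sequence, so reads could have been divided between them or assigned to either one. Their levels differed 13.3-fold as deposited, 114362 against 8575, and the lower value is the one that reads of the other could change most. The arm ratio of miR-53 and its spread with miR-51 rest on this lower value. That ratio also rests on a passenger at 75.0, near the lowest value listed. Taken as 1 miRNA, miR-52-5p and miR-53-5p would be the highest guide of the family, as miR-52-5p already is by itself. The 3p arms of these hairpins differed 36.4-fold, 2730 against 75.0, and whether those arms are also close in sequence was not checked.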

How the data were processed

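Small RNA libraries (TruSeq) were made by the authors from Trizol-extracted RNA of CTRL and HS worms, with 2 libraries per group described as independent biological replicates. Reads were mapped by the authors to *C. elegans* miRNAs. The aligner, the miRNA reference and the way multiply matching reads were assigned are not given in the sources used here. The deposited signal of a miRNA is its read count, scaled by the authors with DESeq2 size factors (version not given) and averaged by them over both groups. The other 2 value columns of the deposited table hold the authors' own comparison of HS with CTRL, as fold changes and adjusted p-values, and were not used. Depth per library is unknown.

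Levels, ranks, shares of the summed level and ratios between arms were computed in Python 3.11.15 with pandas 2.3.3, on all 205 rows with no filter or pseudocount. The code that forms the arm ratios was tested on a simulated table with known ratios, which checks the code and not the measured ratios. Of 132 hairpins, 127 were placed by name on WBcel235 (Ensembl release 115), including all 7 members, whose coordinates were the same in RefSeq. All members were named. Members, lists and alternatives were chosen with earlier results of these data known, and the grouping of neighbouring hairpins and the other families were added after the table had been seen. Seed sharing, pairing at the arm ends and closest sequences, 3 planned descriptions, were not computed because no sequences were used here.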

Additional observations from a re-analysis of the deposited data

How the results depend on the processing

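Of 13 alternatives listed, 8 were run and 5 of these stayed within 1.5-fold of the reported value, a limit set here because no replicate spread was at hand. By their construction these 5 had little room to move, and they do not show that the values are robust. Leaving out the passengers, for example, removed rows that held 1.46% of the summed level of the table. The 3 others follow from their construction as well. With miR-57-5p, which held 69.4% of the members' summed level, left out of the members and of the table, the share was 3.17% in place of 9.69%; left out of the members only, it is the 2.96% given above. With miR-52-5p and miR-53-5p summed, the range from the highest to the lowest guide, miR-57-5p included, was 46.8-fold in place of 77.6-fold, since miR-56-3p then became the lowest. Limiting the arm ratios to hairpins with both arms at 100 or more dropped miR-53 and moved the median log2 ratio of the family from 6.11 to 5.39 (69.2-fold to 41.9-fold) over 5 hairpins, beside 3.77 over 55 others. The 5 alternatives not run were 4 that need sequences and the one that leaves out single libraries. No paired analysis was possible because the value used pools all libraries. Unknown depth limits most the weakest rows, miR-53-3p and miR-51-3p.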
